A study of Mus with 6 samples.

Results

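The genes described here encode receptors that help or restrain a T cell after its antigen receptor has been engaged, or ligands of inhibitory receptors. They were taken by name: Cd28, Icos, Ctla4, Pdcd1, Lag3, Tigit, Cd274, Cd5, Cd200 and Cd160. All 10 were among the protein-coding genes of the deposited table, 10995 in number, and 9 of the 10 passed a filter of a mean of at least 1 FPKM over the 6 libraries, as 8816 of all genes did. FPKM is a level per length of transcript and for the fragments of a library.

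A T cell needs more than its antigen receptor to become active. CD28, which binds CD80 and CD86 on the presenting cell, delivers the costimulatory signal, and ICOS, a related receptor, appears on the surface after activation. CTLA-4 binds the same ligands as CD28 with higher affinity and limits costimulation. PD-1, encoded by Pdcd1, is a further inhibitory relative of CD28, and its ligand PD-L1 is encoded by Cd274. LAG-3, TIGIT, CD5, CD200 and CD160 act in other restraining pathways, and several of these receptors are themselves induced by activation.

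CD4+ T cells were from the spleen of WT mice. Naive CD4+ T cells of both groups were activated for 3 days with IL-2 (100 U/mL) and with antibodies against CD28 (2 μg/mL) and against CD3 (5 μg/mL), so that CD28 was engaged by antibody in every library. In addition, the cells received either anti–VEGF-B, a neutralizing antibody (1 μg/mL), or normal IgG (1 μg/mL). Each group gave 3 RNA-Seq libraries. The comparison asks how blocking VEGF-B altered these transcripts in activated cells. The labels do not say that the libraries came from separate cultures or animals, so the p-values measure only the spread between these libraries, which may be technical.

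The FPKM summed to between 260058 and 276622 in a library, and read depth is unknown. IgG replicate 2 lay farthest from the other libraries on the first principal component, which held 65.1% of the variance. Across all tested genes the median log2 fold change of anti–VEGF-B against IgG was -0.15, and 71.2% of genes were lower after anti–VEGF-B. Fold changes are given throughout on the log2(FPKM + 1) scale, on which changes of weakly expressed genes come out too small. They were tested with limma over all tested genes, with Benjamini-Hochberg adjustment, and genes with an adjusted p under 0.05 were called. In bulk RNA, fewer cells of a type and less RNA per cell cannot be told apart.

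The CD4+ T cell identity was checked with 10 marker genes, all listed, whose summed FPKM was 498 to 544 after anti–VEGF-B and 553 to 673 after IgG. Of these, Il2ra, Thy1 and Cd3e were called lower after anti–VEGF-B and the other 7 were not called. Most of the gap between the sums was in Il2ra, at 65.7, 57.5 and 51.8 FPKM after anti–VEGF-B and 94.9, 150 and 106 after IgG. Cd4 had 70.0 ± 4.56 FPKM after anti–VEGF-B and 68.4 ± 5.56 after IgG (SD, n = 3 each). Myeloid markers, of which 3 of 6 were listed, summed to 10.9 to 12.1 FPKM after anti–VEGF-B and 12.4 to 27.0 after IgG. The upper value came from IgG replicate 3, where Lyz2 was at 16.4 FPKM and Csf1r at 1.57. For B cells 1 of 6 markers was listed (Cd79b, at most 1.34 FPKM in a library), for dendritic cells 1 of 5 (Zbtb46, at most 0.372), and NK markers (3 of 6) summed to at most 0.675. The 2 CD8 genes summed to 3.32 to 4.69 FPKM after anti–VEGF-B and 2.29 to 4.21 after IgG. Most of it was Cd8b1, since Cd8a was at most 0.182 FPKM in a library. Of 4 regulatory T cell markers, Il2ra was called lower and Ikzf2 higher, and Foxp3, which defines the lineage, averaged 0.791 ± 0.0449 and 1.06 ± 0.187 FPKM. The summed regulatory T cell markers were 65.1 to 81.8 FPKM after anti–VEGF-B and 110 to 170 after IgG, most of it Il2ra. Of 3 follicular helper markers, Bcl6 and Il21 were listed and summed to 2.73 to 3.27 and 4.56 to 5.67 FPKM. The part of these markers in the results below was not tested.

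The members spanned a wide range of levels. With IgG, Ctla4 was the most abundant at 397 to 476 FPKM, above Cd28 at 127 to 147. Cd5 and Icos followed with ranges that overlapped, then Cd274 and Tigit, which also overlapped. Lag3, Cd200, Pdcd1 and Cd160 came next in that order, each below the one before in all IgG libraries. Averaged over all 6 libraries, Ctla4 stood at percentile 98.9 of all listed genes and Pdcd1 at percentile 24.8. With anti–VEGF-B the order of the most abundant genes was alike, except that Icos and Cd5, which still overlapped, changed places. Tigit, at 40.1 to 44.1 FPKM, stood above Cd274, at 18.3 to 21.5, with no overlap, and Cd274 now overlapped Lag3 at 15.7 to 19.3.

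**Figure D1:**
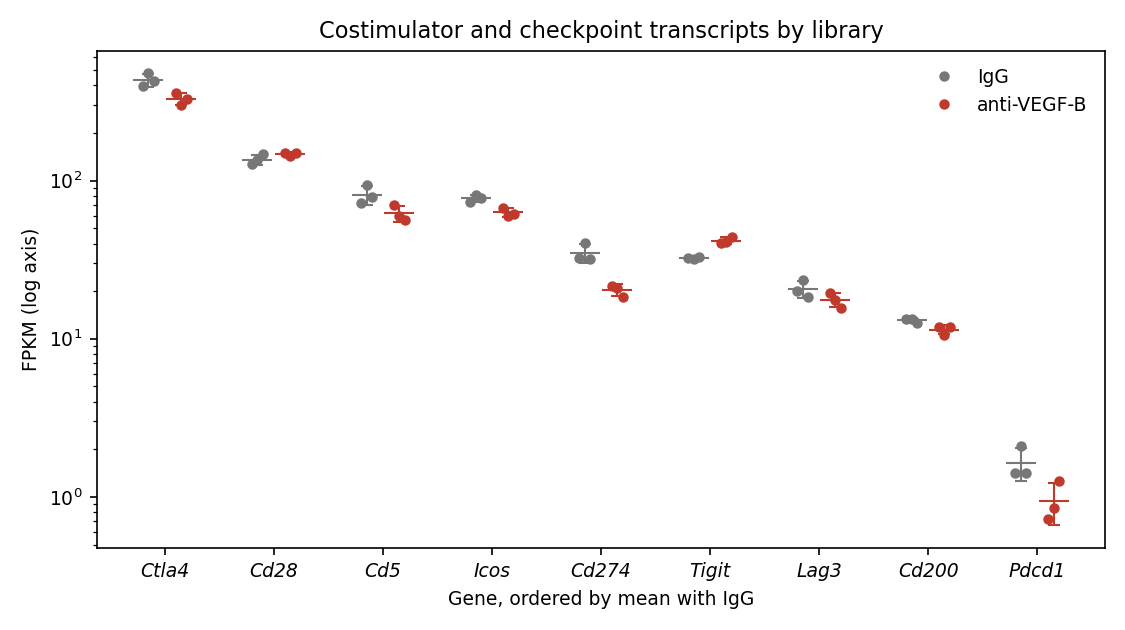
FPKM (log axis) of the 9 members that passed the filter, in IgG (grey) and anti–VEGF-B (red) libraries, ordered by the IgG mean. Points are libraries, horizontal lines are means and bars are SD (n = 3). The red points of Cd274, Ctla4, Cd5, Icos, Cd200 and Pdcd1 lie below all grey points of the gene, and those of Tigit lie above.

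Of the 9 tested members, 5 were called lower after anti–VEGF-B (Cd274, Ctla4, Icos, Cd5 and Pdcd1) and 1 was called higher (Tigit). Cd28, Lag3 and Cd200 did not pass. Pdcd1 passed the filter through its IgG libraries, and without a filter it was not called (limma adjusted p = 0.0513). Over all tested genes, 23.8% were called lower and 4.87% higher. The groups did not overlap for 7 members, 6 of them lower and 1 higher, where 38.5% of all genes were lower and 10.5% higher without overlap. The median log2 fold change of the members was -0.29, beside -0.15 over all genes. How far each call depended on the scaling between libraries is given after the members.

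Cd28, the costimulator itself, was at 149, 143 and 149 FPKM in the anti–VEGF-B libraries and at 127, 134 and 147 in the IgG libraries. The groups overlapped, since IgG replicate 3 was above an anti–VEGF-B library. The means were 147 ± 3.37 and 136 ± 9.96 FPKM (SD, n = 3), and the log2 fold change of 0.12 (SE 0.075, 95% interval -0.05 to 0.29) did not pass in limma (adjusted p = 0.25). The gene lies at chr1:60716800-60773359 on the plus strand (GRCm38, as are all positions below).

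Icos is the inducible costimulator that binds ICOS ligand and signals strongly through phosphoinositide 3-kinase. It was at 67.3, 59.8 and 61.9 FPKM after anti–VEGF-B and at 73.6, 80.5 and 77.1 after IgG. Every anti–VEGF-B library was below every IgG library. The mean fell from 77.0 ± 3.49 to 63.0 ± 3.86 FPKM, with a log2 fold change of -0.29 (SE 0.075, limma adjusted p = 0.0236). The call was lost without anti–VEGF-B replicate 2 (adjusted p = 0.0654) or 3 (0.0809) and without IgG replicate 2 (0.0689) or 3 (0.0587), and the adjusted p ranged from 0.0187 to 0.977 over all 15 alternatives. Icos is at chr1:60977927-61000320 on the plus strand.

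Ctla4, the inhibitory counterpart of CD28, was at 357, 299 and 329 FPKM after anti–VEGF-B and at 397, 476 and 423 after IgG. Again no library of either group fell within the range of the other. The means were 328 ± 28.9 and 432 ± 40.2 FPKM, a difference of -24.1%, and the log2 fold change was -0.40 (SE 0.096, 95% interval -0.61 to -0.18, limma adjusted p = 0.0179). It no longer passed without anti–VEGF-B replicate 2 (adjusted p = 0.0530) or 3 (0.0607), within a range of 0.0176 to 0.725 over the 15 alternatives. Its listed span, chr1:60887000-60915832 on the plus strand, also overlaps the long noncoding RNAs Gm38137 and Gm39650 and a pseudogene, Rpl18-ps1. How reads of such overlaps were assigned is not given in the sources used here.

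Cd28, Ctla4 and Icos lie next to each other on chromosome 1 within 283521 bases, the gap being 113640 bases between Cd28 and Ctla4 and 62094 bases between Ctla4 and Icos. Within this cluster the called genes were the adjoining Ctla4 and Icos, and the difference between Cd28 and its neighbours was measured as a ratio within each library, which no scaling factor of a library can alter. The ratio of Ctla4 to Cd28 FPKM was 2.39, 2.08 and 2.21 after anti–VEGF-B and 3.13, 3.55 and 2.89 after IgG. The groups did not overlap and the log2 ratio differed by -0.52 (1.15 ± 0.0978 and 1.67 ± 0.151). The exact two-sided permutation test gave p = 0.1, the smallest p that 3 against 3 libraries allow, and 0.125 after adjustment over the 5 ratios computed. Cd28 itself had a log2 fold change of 0.12, while the median of all tested genes was -0.15. A gene at that median would thus also fall against Cd28. The share of all genes whose ratio to Cd28 fell was not computed, here or for the ratios to Cd28 below.

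The ratio of Icos to Cd28 was 0.450, 0.417 and 0.416 after anti–VEGF-B and 0.580, 0.601 and 0.526 after IgG, a log2 difference of -0.41 with no overlap (exact permutation p = 0.1, adjusted 0.125). The inhibitory and the costimulatory gene that lie beside each other moved more nearly in step. Ctla4 over Icos was 5.30, 4.99 and 5.32 after anti–VEGF-B and 5.40, 5.91 and 5.49 after IgG. The log2 difference was smaller, -0.11, but again with no overlap (exact permutation p = 0.1, adjusted 0.125). Pdcd1 over Cd28 differed by -0.93 on the log2 scale with no overlap (exact permutation p = 0.1, adjusted 0.125). Pdcd1 was near the filter, which its anti–VEGF-B mean alone did not reach. With 1 added to each FPKM the difference of Pdcd1 over Cd28 was -0.56. For Lag3 over Cd28 the difference was -0.35 and the groups overlapped (exact permutation p = 0.2, adjusted 0.2). No ratio could reach an exact p under 0.05 in this design.

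**Figure D2:**
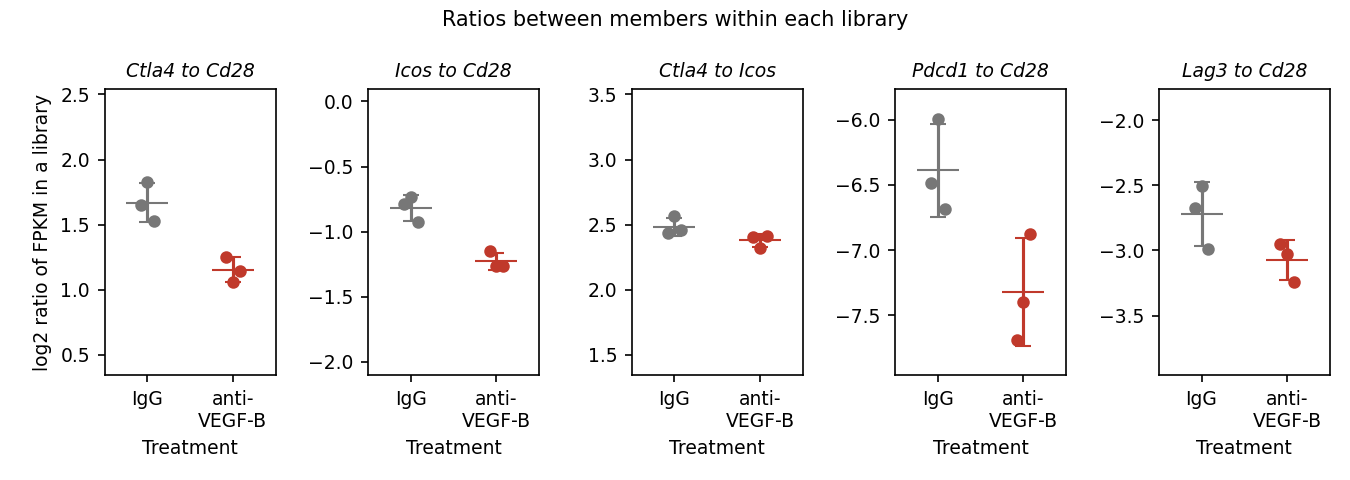
Log2 ratio of FPKM between pairs of members within each library, for IgG (grey) and anti–VEGF-B (red). Points are libraries and bars are mean ± SD (n = 3), and the 5 panels span equal lengths of the log2 axis at different positions. The ratios of Ctla4, Icos and Pdcd1 to Cd28 lie lower after anti–VEGF-B without overlap, by 0.52, 0.41 and 0.93. Those of Ctla4 to Icos also lie lower without overlap, by less, while the Lag3 to Cd28 ratios overlap. With 1 added to each FPKM, the difference of Pdcd1 to Cd28 was -0.56.

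Pdcd1 encodes PD-1, the receptor that recruits the phosphatase SHP-2 and dampens signals from the antigen receptor and CD28. It was close to the filter, which its anti–VEGF-B mean alone did not reach. The libraries were at 0.724, 0.848 and 1.27 FPKM after anti–VEGF-B and at 1.41, 2.11 and 1.43 after IgG. All IgG libraries were above all anti–VEGF-B libraries, with a narrow gap between the 1.27 and 1.41 FPKM on either side. The means were 0.947 ± 0.285 and 1.65 ± 0.397 FPKM, and the log2 fold change was -0.44 (SE 0.14, limma adjusted p = 0.0460). This call passed in 3 of 14 alternatives, with adjusted p from 0.0431 to 0.243. Leaving out anti–VEGF-B replicate 1 (adjusted p = 0.134) or 2 (0.113), or IgG replicate 1 (0.0502), 2 (0.127) or 3 (0.0612), ended it. The gene is at chr1:94038305-94052553 on the minus strand.

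Cd274, encoding PD-L1, had the largest log2 fold change on this scale and the lowest p of the members. PD-L1 is the ligand of PD-1, can also bind CD80, and is carried by activated T cells as well as by presenting cells. It was at 21.5, 21.1 and 18.3 FPKM after anti–VEGF-B and at 32.4, 40.3 and 31.8 after IgG. The lowest IgG library was well above the highest anti–VEGF-B library. The mean fell from 34.8 ± 4.74 to 20.3 ± 1.76 FPKM, a difference of -41.7%, with a log2 fold change of -0.75 (SE 0.11, 95% interval -0.99 to -0.50, limma adjusted p = 0.00499). IgG replicate 3, which held the high myeloid markers, had Cd274 at 31.8 FPKM, and the part of such cells in its level was not tested. Without that library the log2 fold change was -0.81 (limma adjusted p = 0.0101). Over the 15 alternatives the adjusted p ranged from 0.00493 to 0.0707. It lies at chr19:29367455-29388095 on the plus strand, a span that also covers the long noncoding RNA Gm36043.

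PD-L2, the other ligand of PD-1, is encoded by Pdcd1lg2, which lies 22823 bases from Cd274. It was at 3.49, 2.97 and 3.48 FPKM after anti–VEGF-B and at 4.91, 7.18 and 4.82 after IgG. For both ligand genes every anti–VEGF-B library was thus below every IgG library, the log2 fold change of Pdcd1lg2 being -0.61 (limma adjusted p = 0.0167). On the other side of Cd274, Plgrkt, a receptor for plasminogen whose listed end is 64 bases away, did not pass (log2 fold change -0.24, adjusted p = 0.0974).

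Lag3 encodes a CD4-related receptor that binds MHC class II molecules. It was at 19.3, 17.6 and 15.7 FPKM after anti–VEGF-B and at 19.9, 23.6 and 18.5 after IgG. IgG replicate 3 lay within the range of the anti–VEGF-B libraries. The means were 17.6 ± 1.80 and 20.7 ± 2.65 FPKM, and the log2 fold change of -0.22 (SE 0.11, 95% interval -0.47 to 0.03) did not pass (limma adjusted p = 0.15). Lag3 is at chr6:124904361-124911705 on the minus strand, 16139 bases from Cd4, whose log2 fold change was 0.03 (adjusted p = 0.78). On its other side Ptms, the gene of parathymosin, was called lower (-0.45, adjusted p = 0.0311).

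Tigit, whose product competes with CD226 for the ligand CD155 and is inhibitory, was the member that rose. It was at 40.1, 41.0 and 44.1 FPKM after anti–VEGF-B and at 32.5, 31.9 and 33.0 after IgG. Every anti–VEGF-B library was above every IgG library, and the IgG libraries lay close together. The mean rose from 32.4 ± 0.546 to 41.7 ± 2.13 FPKM, or by 28.6%, with a log2 fold change of 0.35 (SE 0.071, 95% interval 0.19 to 0.51, limma adjusted p = 0.0111). The gene is at chr16:43648861-43664184 on the minus strand.

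Pvr, which encodes CD155, was at 27.3, 25.9 and 24.5 FPKM after anti–VEGF-B and at 30.5, 33.1 and 31.6 after IgG. Its log2 fold change was -0.29 (limma adjusted p = 0.0245), but it was positive when the libraries were scaled to the Cd3 genes. Cd226, the activating receptor for CD155, was at 3.03, 2.20 and 2.56 FPKM after anti–VEGF-B and at 3.71, 3.72 and 3.42 after IgG, with a log2 fold change of -0.37 (adjusted p = 0.0387). Median centring ended both calls, with adjusted p of 0.41 for Pvr and 0.28 for Cd226. Cd96 and Nectin2, a further receptor and a further ligand, were under the filter, at means of 0.809 ± 0.137 and 0.720 ± 0.0399 FPKM after anti–VEGF-B and 0.799 ± 0.0753 and 0.989 ± 0.103 after IgG.

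Cd5 encodes a scavenger-receptor protein of all T cells that lowers antigen receptor signaling. It was at 69.9, 59.9 and 56.3 FPKM after anti–VEGF-B and at 71.9, 93.4 and 78.9 after IgG. The groups did not overlap, though anti–VEGF-B replicate 1 came close to IgG replicate 1. The means were 62.0 ± 7.07 and 81.4 ± 10.9 FPKM, with a log2 fold change of -0.38 (SE 0.11, limma adjusted p = 0.0343). The call was lost without anti–VEGF-B replicate 2 (adjusted p = 0.0846) or 3 (0.117) and without IgG replicate 2 (0.101) or 3 (0.0614), and the adjusted p ranged from 0.0250 to 0.707 over the 15 alternatives. Cd5 is at chr19:10718143-10738974 on the minus strand. Its relative Cd6, 50366 bases away, was at 38.9 ± 4.17 FPKM after anti–VEGF-B and 49.4 ± 5.64 after IgG (log2 fold change -0.33, adjusted p = 0.0416). That call of Cd6 was also lost with median centring (adjusted p = 0.31).

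Cd200, a membrane glycoprotein that restrains myeloid cells through its receptor, was at 11.9, 10.5 and 11.8 FPKM after anti–VEGF-B and at 13.3, 13.4 and 12.5 after IgG. The libraries of the groups did not overlap, yet the difference did not pass: the means were 11.4 ± 0.758 and 13.1 ± 0.463 FPKM and the log2 fold change was -0.18 (SE 0.084, 95% interval -0.37 to 0.01, limma adjusted p = 0.13). The gene is at chr16:45382135-45409053 on the minus strand, on the chromosome that also carries Tigit, 1717950 bases away. The gene of its receptor, Cd200r1, was at 0.116 ± 0.0423 FPKM after anti–VEGF-B and 0.414 ± 0.205 after IgG and was not tested.

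Cd160, which like BTLA binds HVEM, was listed at 0 in 2 libraries of each group and at 0.0616 and 0.101 FPKM in anti–VEGF-B replicate 3 and IgG replicate 3. It fell under the filter and no fold is given. The other receptor of HVEM on T cells was measurable. Btla, an inhibitory receptor gene 129239 bases from Cd200, was at 5.21, 5.20 and 5.01 FPKM after anti–VEGF-B and at 9.39, 12.9 and 10.3 after IgG (log2 fold change -0.94, limma adjusted p = 0.00469). Tnfrsf14, which encodes HVEM itself, was at 2.23 ± 0.286 FPKM after anti–VEGF-B and 4.33 ± 0.336 after IgG (log2 fold change -0.72, adjusted p = 0.00511). Receptor and ligand were both below all IgG libraries in every anti–VEGF-B library, and their calls held with median centring, with adjusted p of 0.00483 and 0.0105.

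**Figure D3:**
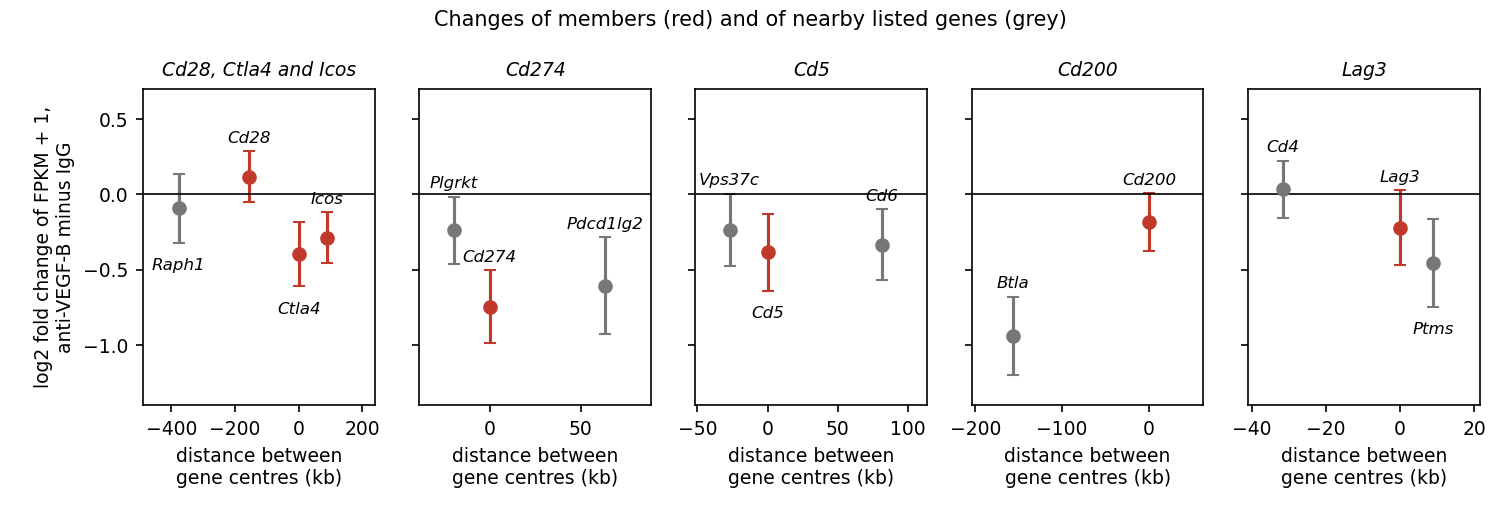
Log2 fold change of FPKM + 1 (anti–VEGF-B minus IgG, bars are 95% intervals from limma) of members (red) and of nearby listed genes (grey), against the distance between gene centres in kb. Cd28 lies above 0 beside Ctla4 and Icos below it, and Pdcd1lg2, Cd6 and Btla lie below 0 with Cd274, Cd5 and Cd200, while Cd4 (0.03) stands above Lag3. Raph1, Plgrkt, Vps37c, Ptms, Cd4 and Cd6 were chosen for their position after values had been seen.

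Since most genes were lower after anti–VEGF-B, each member was set against other scalings of the libraries. Quantile normalization, which brought the median of all genes to 0.01, kept Cd274, Cd5, Icos and Ctla4 as lower and Tigit as higher in limma, where 10.4% of all genes were called lower and 9.98% higher. Median centring left Cd274 as the lower member (log2 fold change -0.54) and called 2 higher, Tigit (0.55, adjusted p = 0.00626) and Cd28 (0.32, adjusted p = 0.0383). Under it 9.15% of genes were called lower and 15.5% higher. Scaled to the T cell receptor genes Cd3d, Cd3e and Cd3g, Cd274 was lower (-0.46, adjusted p = 0.0431) and Tigit higher (0.64, adjusted p = 0.0186), with 4.91% and 8.21% of all genes called. Cd3e was itself called lower in the values as deposited, at 11.0 ± 1.69 FPKM after anti–VEGF-B and 16.0 ± 2.27 after IgG. Cd3g, at 16.8 ± 2.36 and 23.1 ± 5.30 FPKM, did not pass (adjusted p = 0.0621). Cd3d, at 110 ± 8.81 and 103 ± 2.92 FPKM, did not pass either (adjusted p = 0.34). The Cd3 scaling left the median of all genes at 0.09, and median centring left it at 0.05.

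The calls of Cd274 and Tigit thus held under each of these scalings, and they held without each library in turn. Over the 6 fits that left out a library, the log2 fold change ranged from -0.81 to -0.64 for Cd274 and from 0.31 to 0.38 for Tigit, with adjusted p of at most 0.0213 and 0.0498. Without moderating the variance over genes neither passed, at adjusted p of 0.0707 and 0.0695. The direction of Ctla4, Cd5, Pdcd1, Cd28, Cd274 and Tigit was the same under all 3 scalings. Icos turned from negative to 0.01 with the Cd3 scaling, Lag3 to 0.06 with it, and Cd200 turned positive with it (0.09) and with median centring (0.02).

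**Figure D4:**
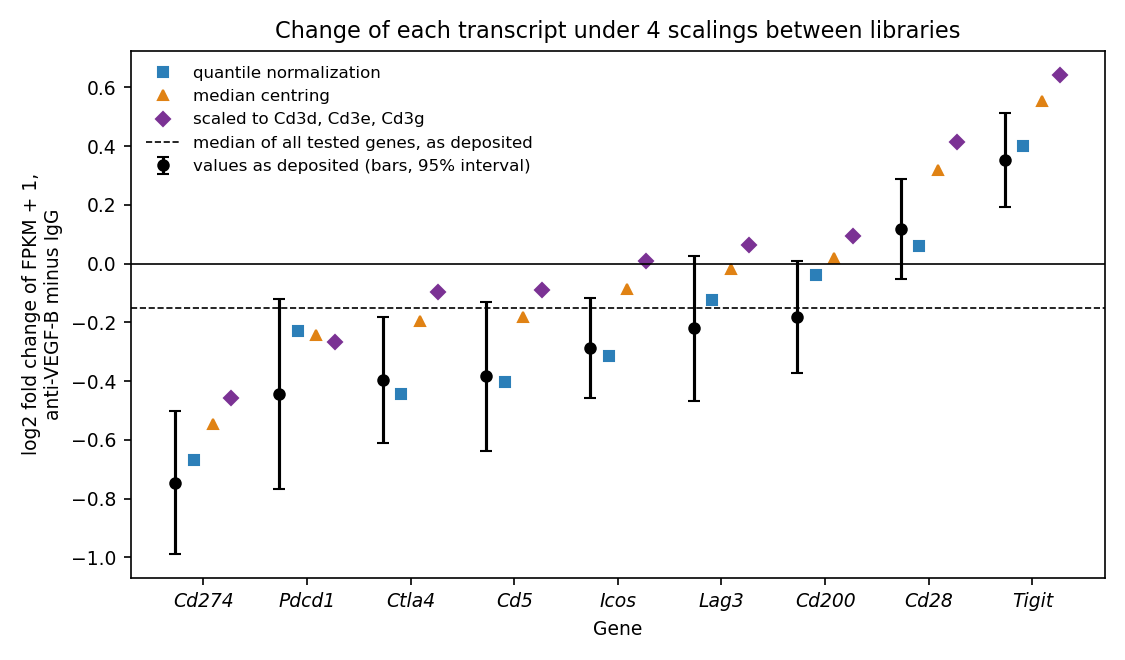
Log2 fold change of FPKM + 1 (anti–VEGF-B minus IgG) for the 9 tested members, from the values as deposited (black, bars are 95% intervals from limma) and after quantile normalization, median centring and scaling to Cd3d, Cd3e and Cd3g. The dashed line is the median of all tested genes as deposited (-0.15). All 4 symbols lie below 0 for Cd274, Pdcd1, Ctla4 and Cd5 and above 0 for Cd28 and Tigit, and they straddle 0 for Icos, Lag3 and Cd200.

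The wider pathway was described with 6 lists of other genes. They held 193 symbols in all, with some genes under 2 names, of which 174 were listed and 163 tested. Of these, 53 were called lower after anti–VEGF-B (32.5%, beside 23.8% of all genes), 9 higher (5.52%, beside 4.87%) and 101 did not pass. The median log2 fold change was -0.19. Median centring called 24 of them lower and 26 higher, where it called 9.15% of all genes lower and 15.5% higher. The called pathway genes named here, other than Havcr2, were followed over the alternatives. Pvr passed in 7 of 15 alternatives, Cd226 in 5 of 14 and Cd6 in 6 of 15, and the others passed in 9 to 14. Over the 6 fits that left out a library, some genes called higher often lost the call. Pik3r1 passed in 1 of them, Ptpn2 in 2, and Cblb, Fosl2 and Ikzf2 in 3 each. Ppp2ca passed in 4, and Foxo1, B4galt1 and Il2 in all 6.

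Ligands and partner receptors were the list with the highest share of lower genes. Of 37 symbols, 21 were listed and 15 tested, with a median log2 fold change of -0.37. Of the tested genes 10 were called lower (66.7%) and 0 higher, beside 23.8% and 4.87% of all genes. Pvr, Cd226 and Cd6 lost the call with median centring, as given above. Havcr2, at 0.746 FPKM after anti–VEGF-B and 1.48 after IgG, passed the filter through the IgG libraries. Beside Btla, Tnfrsf14, Pdcd1lg2, Pvr, Cd226, Cd6 and Havcr2, the genes called lower included Cd80. It encodes a ligand of CD28 and CTLA-4 that activated T cells can carry. Cd80 was at 2.20, 1.45 and 1.26 FPKM after anti–VEGF-B and at 2.79, 4.06 and 3.74 after IgG (log2 fold change -0.79, limma adjusted p = 0.0110). Lgals3, encoding galectin-3, which can bind LAG-3, did not pass (46.7 ± 5.04 and 46.1 ± 5.27 FPKM, adjusted p = 0.91). Among the ligands under the filter, Cd86 was at 0.0755 ± 0.0436 and 0.120 ± 0.0326 FPKM after anti–VEGF-B and IgG, and Icosl, the ligand of ICOS, at 0.154 ± 0.0257 and 0.222 ± 0.0710. Fgl1, Nectin3 and Pvrig were not analysed here.

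Signal brakes, the phosphatases, kinases, ubiquitin ligases and adaptors through which inhibitory receptors act, had 30 members, all tested. Of these, 9 were called lower and 3 higher (median -0.16), or 30% and 10%, beside 23.8% and 4.87% of all genes. Ptpn6, encoding the phosphatase SHP-1, was at 39.6 ± 2.71 FPKM after anti–VEGF-B and 52.8 ± 4.76 after IgG (log2 fold change -0.40, limma adjusted p = 0.0136). Ptpn11, encoding SHP-2, was at 3.11 ± 0.162 and 5.26 ± 1.13 (-0.59, adjusted p = 0.0141). The adaptor gene Sh2b3 also fell (-0.82, adjusted p = 0.00491). Those that rose were Cblb, a ubiquitin ligase that sets the need for CD28 (45.0 ± 1.86 FPKM after IgG and 56.5 ± 4.70 after anti–VEGF-B, 0.32, adjusted p = 0.0215), the phosphatase gene Ptpn2 (0.34, adjusted p = 0.0273) and Ppp2ca, the catalytic subunit of PP2A (0.29, adjusted p = 0.0190). The brakes thus moved in both directions, and with median centring Ptpn6 no longer passed (adjusted p = 0.0963).

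The list of genes that carry the signal of CD28 and ICOS inside the cell held 38 symbols. Of these, 37 were tested, with 8 called lower and 1 higher. Their median was -0.13 and their share of lower calls, 21.6%, was near that of all genes. Those called lower included Vav3, a guanine nucleotide exchange factor (-0.54, limma adjusted p = 0.00901), and Akt1, a kinase downstream of PI3K (-0.84, adjusted p = 0.0102). Pik3r1, the regulatory subunit of PI3K, was higher (0.28, adjusted p = 0.0428).

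Genes for trafficking, shedding and turnover of these receptors numbered 29, of which 26 were tested, with 9 called lower and 1 higher (median -0.23). The shares called were 34.6% and 3.85%, beside 23.8% and 4.87% of all genes. Adam10 and Adam17, proteases that cleave LAG-3 from the surface, were at 4.94 ± 0.742 and 5.05 ± 0.246 FPKM after anti–VEGF-B and at 10.2 ± 2.29 and 7.22 ± 0.802 after IgG. Their log2 fold changes were -0.90 and -0.44 (limma adjusted p = 0.00748 and 0.0162). Trat1, an adaptor known to promote surface expression of CTLA-4, was also lower (-0.44, adjusted p = 0.0116), and B4galt1, a galactosyltransferase, was higher (0.48, adjusted p = 0.00690). Adam17 and Trat1 no longer passed with median centring, at adjusted p of 0.0678 and 0.0803.

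Among 36 transcription factors known to act on checkpoint genes, 32 were tested, 10 were called lower and 3 higher (median -0.15). The shares called were 31.2% and 9.38%, beside 23.8% and 4.87% of all genes. Irf4, which is induced in proportion to antigen receptor signaling, was at 32.0, 31.5 and 22.6 FPKM after anti–VEGF-B and at 67.5, 134 and 86.6 after IgG. Its log2 fold change of -1.67 (limma adjusted p = 0.00488) was larger than that of any member. Nfatc1, a factor activated by calcium, was also lower (-0.84, adjusted p = 0.00527). Foxo1, Fosl2 and Ikzf2 were higher by 0.48, 0.30 and 0.42 (adjusted p = 0.00875, 0.0191 and 0.0231). Foxo1, a factor of resting T cells held out of the nucleus by Akt, was at 45.6 ± 4.02 FPKM after anti–VEGF-B and 32.3 ± 2.45 after IgG.

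Genes known to respond to CD28 were 24, all tested, with 7 called lower and 1 higher (median -0.19). The shares called were 29.2% and 4.17%, beside 23.8% and 4.87% of all genes. Tnf, Il21 and Il2ra were lower (-0.79, -0.91 and -0.97, limma adjusted p = 0.00471, 0.00499 and 0.00665), and Il2ra, the high-affinity IL-2 receptor chain, was at 58.3 ± 7.01 FPKM after anti–VEGF-B and 117 ± 28.9 after IgG. Il2, the classic target of CD28 costimulation, was the gene that rose. It was at 1.33, 1.77 and 1.42 FPKM after anti–VEGF-B and at 0.801, 0.583 and 0.292 after IgG (log2 fold change 0.69, adjusted p = 0.0104). Its IgG mean of 0.559 FPKM was under the filter, which Il2 passed, at 1.03 over all libraries, through the anti–VEGF-B libraries. Il21, at 0.961 FPKM after anti–VEGF-B, passed it through the IgG libraries. At these low levels Il2 stood higher in every anti–VEGF-B library, while the receptor chain was lower. All cells were cultured with added IL-2.

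**Figure D5:**
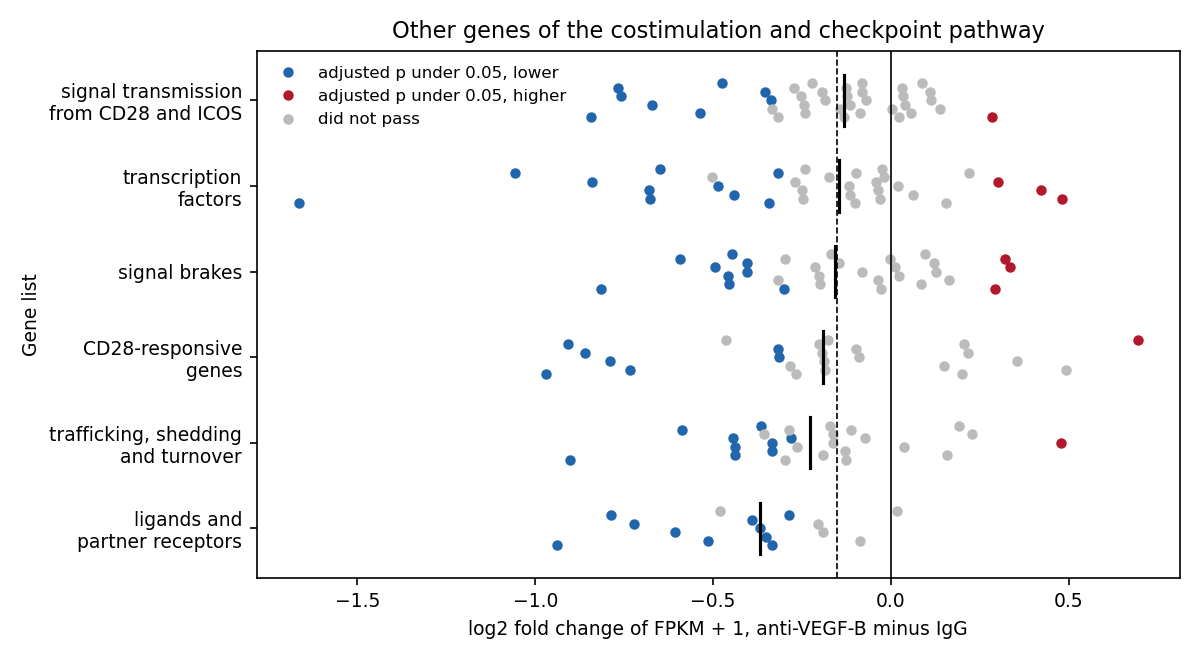
Log2 fold change of FPKM + 1 (anti–VEGF-B minus IgG) of the tested genes of the 6 pathway lists. Points are genes, blue where called lower, red where called higher and grey where not called, the black bar is the median of a list and the dashed line the median of all tested genes (-0.15). The ligands and partner receptors have the lowest median (-0.37) and no red point, and the signal brakes and transcription factors have 3 red points each.

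The genes whose levels were most alike to those of Cd274, the member with the lowest p, over the 6 libraries were Dpp9, Hnrnpab and Gtf2h3 (Pearson r of 0.9994, 0.9988 and 0.9984). For Ctla4, the most abundant member, they were Ap4m1, Tmem199 and Map2k5 (0.9979, 0.9972 and 0.9966). These are descriptions over 6 libraries that share the split into anti–VEGF-B and IgG.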

How the data were processed

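RNA was measured in 6 libraries of activated CD4+ T cells, 3 for anti–VEGF-B and 3 for IgG. The authors aligned reads of stranded libraries to GRCm38 with hisat2, and quantified them with StringTie and Ballgown. The deposited value of each gene in a library is not whole and was used as FPKM, although the table does not name its unit. No count model was run. Depth is unknown: at most 1.38% of values under 0.3 FPKM shared a ratio between libraries. Of the columns with values per library, 0 were left out.

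Groups followed the labels. Genes averaging 1 FPKM or more (8816) entered a limma 3.58.1 fit of log2(FPKM + 1) (R 4.3.3, empirical Bayes with trend), with no covariate and Benjamini-Hochberg adjustment. Ratios were tested with exact permutations. The alternatives changed scaling, filter, pseudocount, moderation, thresholds, replicate block and libraries. The method was tested on simulated data.

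The members and lists were chosen with earlier results of these data known. Beside the members, the rule named their direct ligands and partner receptors, up to 3 called genes in each direction with the lowest p in each list, and the 3 genes most alike to Cd274 and Ctla4. Not every gene that this rule picked is reported here. All 10 members matched 1 symbol each in RefSeq (GRCm38.p6), which was used for overlapping genes.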

Additional observations from a re-analysis of the deposited data

How the results depend on the processing

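Beside 2528 genes called, 5 members lower and 1 higher, and 53 pathway genes lower and 9 higher, the counts moved as follows, and the cause was not tested except that a higher filter tests fewer genes. Quantile normalization gave 30 pathway genes lower and 15 higher. Median centring gave 1 member lower and 2 higher, 24 pathway genes lower and 26 higher, and a member median of -0.086. The Cd3 scaling gave 1157 genes, 1 member lower, 14 pathway genes lower and 15 higher, and turned the member median to 0.0078, Icos to 0.0078, Lag3 to 0.064 and Cd200 to 0.094, and median centring turned Cd200 to 0.019. A mean of at least 5 FPKM, under which Pdcd1 was not tested, gave 1331 genes and 33 pathway genes lower. With no moderation 12 genes, 0 members and 0 pathway genes were called in limma, against 5 members lower and 1 higher with it. Calling at a log2 fold change beyond 0.5 in size and p under 0.05 before adjustment gave 1121 genes, 1 member lower and 0 higher, and 25 pathway genes lower and 1 higher. Leaving out 1 library gave 859 to 2467 genes, 1 to 4 members lower, and 22 to 51 pathway genes lower and 3 to 9 higher. The lowest counts of genes and pathway genes were without anti–VEGF-B replicate 3 (859, 22 and 3), and without IgG replicate 2 they were 1359, 33 and 3. Without anti–VEGF-B replicate 1 there were 1679 genes, and without its replicate 2 there were 5 pathway genes higher and 1 member lower (Cd274). Lower members were Cd274 and Pdcd1 without anti–VEGF-B replicate 3, and Cd274 and Ctla4 without IgG replicate 2 or 3. Of 134 recomputed fold changes of single members, 98 kept direction and call, 31 lost the call, 1 gained it and 4 changed sign. The differences in the 5 ratios kept their direction under all alternatives run.

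The replicate numbers were not shown to pair the libraries, since the deviations of same-numbered libraries correlated at -0.03, 0.11 and 0.09 and 3 of 6 libraries correlated best with their own number. A replicate block gave 2578 genes, 4 members lower (without Pdcd1) and 1 higher. Cd160 was tested where no filter was applied and did not pass there (limma adjusted p = 0.86). Counting error could not be given without depth.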
